A study of Mus musculus with 24 samples.

Results

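F9 is an established line of mouse embryonal carcinoma cells, the undifferentiated stem cells of a teratocarcinoma. Its transcripts were compared with those of whole mouse testis on the arrays labelled F9 (3 arrays) and Testis (3 arrays), 6 of the 24 arrays of the study. All 60804 probes for lncRNAs and mRNAs entered the comparison, whether or not a transcript had been listed as testis-specific. F9 cells were grown in DMEM with fetal bovine serum on gelatin, and retinoic acid was left out of the medium according to the methods. The testes came from male ICR mice 8 weeks old. Both groups are wild type as far as the labels say, and both are labelled male. The other 18 arrays hold brain, heart, kidney, liver and the spermatogonium- and spermatocyte-derived lines GC-1 and GC-2, 3 arrays each. The methods speak of biological replicates in their passage on tissues, and of cultured cells taken for RNA at an early passage. Whether the 3 F9 arrays came from separate cultures is not spelled out, so p-values measure the spread between these samples, which may be partly technical.

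Embryonal carcinoma cells resemble the cells of the early embryo. They divide fast, express a transcription factor network that holds differentiation back, and F9 cells turn into endoderm when treated with retinoic acid. The adult testis is a mixture. Spermatogonia divide by mitosis, spermatocytes go through meiosis, and spermatids make the acrosome and the tail of the sperm. Leydig cells make testosterone and Sertoli cells carry the germ cells. A testis transcript can therefore be lower in F9 because few F9 cells make it, because each makes less, or because the transcript belongs to a testis cell type that the line does not hold. In RNA from whole samples, fewer cells of a type and less RNA per cell cannot be told apart.

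Levels are given as log2 of the processed intensity minus the 75th percentile of the array, so a level of 0 lies at that percentile. This percentile was an intensity of 305 to 384 on the testis arrays and of 65.5 to 105 on the F9 arrays. Scaling to it moved probes near background up in F9. The median difference, F9 minus testis, was 1.63 over all 60804 probes, 1.497 over the 20932 probes well above background on all 6 arrays and 2.13 over the 20056 probes well above background on none. A positive difference under 1.63 thus lies below that of the median probe. Replicates correlated at 0.977 to 0.989 in F9 and 0.982 to 0.991 in testis, and replicate 1 of both groups, which shared a slide, stood somewhat apart from the others. Only 3478 probes (5.72%) could be named, among them 260 mRNA probes. The study had listed those mRNAs as testis-specific and present in a cell line. Of the 3218 named lncRNA probes, 1553 come from the brightest part of a list for brain, 276 from the brightest part of a list for F9 and not from that for brain, and 1389 from other lists, mostly of tissue-specific lncRNAs. The median of the 1404 probes on the F9 list is a level that 2.17% of all probes reach in F9. An lncRNA known from that list and not from the brain list was named because it is bright in F9. Its higher level there is given as a description, and where a list count includes such probes their number is stated. Likewise the detection of the listed mRNAs was fixed by the naming. All 260 were detected in testis, and the 187 on the F9 sheet in both groups. Among all 20932 probes detected in both groups, 31.2% were called higher in F9 and 5.32% lower under the rule given further down, and these shares are set beside the list counts. The mRNA lists are drawn from the 260 named mRNA probes, of which 10.4% were called higher and 34.2% lower. For the 187 on the F9 sheet the shares were 14.4% and 21.9%. No list was tested against any of these shares.

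Zfp42 (Rex1), a zinc finger protein that marks undifferentiated embryonic stem and carcinoma cells, had levels of 4.22, 4.77 and 4.97 in F9 and of -1.71, -1.31 and -1.80 in testis. Its arrays did not overlap, and F9 was 6.26 higher (log2, standard error SE = 0.28), with a limma p of 4.77e-07 after Benjamini-Hochberg adjustment, as for every adjusted p below. The gene is on chromosome 8 (GRCm38), between 43295067 and 43307009. Zfp42 was the only one of 8 fixed markers of pluripotent cells that could be named, and its level goes with the F9 label.
Stra8, which germ cells switch on as they enter meiosis and which retinoic acid induces, had levels of 1.63, 0.98 and 1.14 in F9 and of 0.04, -0.00 and 0.26 in testis. All 6 arrays detected it. The difference of 1.15 (SE 0.26, limma adjusted p = 0.0032) was under 5-fold and below that of the median probe, and its direction turned with the scaling, to -0.33 at the lowest, so no difference is read for Stra8.
Star, the cholesterol carrier of steroid-making Leydig cells, was well above background on all 3 testis arrays at 2.19 to 2.83 and on 1 of 3 F9 arrays. Its level in F9 was lower by 4.89 (log2, SE 0.52, limma adjusted p = 5.80e-05). Acr, the acrosin protease of the sperm acrosome, was at 2.64 to 2.83 in testis and at -1.88 to -1.55 in F9, a difference of -4.53 (limma adjusted p = 8.28e-07). Of the 55 markers fixed for 9 cell types, 9 could be named, and none of these was a marker of Sertoli cells, of peritubular cells or of the endoderm that differentiated F9 cells form.

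The named lncRNAs with the largest rises in F9 are shown by their 60-base probes, since probes of near-identical copies read one another's RNA. Capitals mark the longest run that the members of a pair share, and probes without a partner have none. All but Gap43 are named only from the F9 list or from it and the list of testis-specific lncRNAs.
Gm11649: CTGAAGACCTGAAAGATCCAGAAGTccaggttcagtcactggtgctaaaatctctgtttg
Gm5229: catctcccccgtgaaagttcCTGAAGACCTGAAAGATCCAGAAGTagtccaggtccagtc
Gm6798: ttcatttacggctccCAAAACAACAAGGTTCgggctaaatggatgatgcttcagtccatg
Gm6083: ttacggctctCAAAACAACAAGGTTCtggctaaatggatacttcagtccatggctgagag
Gap43: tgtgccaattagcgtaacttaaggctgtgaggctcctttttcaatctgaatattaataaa
Tdh: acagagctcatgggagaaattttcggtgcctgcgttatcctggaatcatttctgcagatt

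Gm11649 (ENSMUST00000118214, chromosome 11 of GRCm38, 107531931 to 107532305) had levels of 6.80, 7.03 and 7.12 in F9 and of -3.76, -3.89 and -4.84 in testis, where 2 of 3 arrays were well above background. It was higher in F9 by 11.15 on the log2 scale. Gm5229 (ENSMUST00000039375, chromosome 17, 78177590 to 78177947), a pseudogene in RefSeq whose probe shares 25 bases with it, was higher by 10.91, with levels of 9.06 to 9.49 in F9 and -1.79 to -1.39 in testis. Both were raised on every F9 array.
Gm6798 (ENSMUST00000119961, chromosome X, 8654465 to 8654824) and Gm6083 (ENSMUST00000075518, chromosome 5, 29538153 to 29538509) are also pseudogenes in RefSeq. Their probes share 16 unbroken bases. Gm6798 had levels of 9.45, 9.66 and 9.85 in F9 and of -0.26, -0.56 and -0.47 in testis, and Gm6083 had 9.25, 9.64 and 9.77 against -0.21, -0.18 and -0.31. Their differences of 10.08 and 9.79 lay close together, and probes as alike as these are not independent measurements.
The probes for Tdh and Gap43 are classed as exonic sense, which means that the lncRNA overlaps an exon of a protein-coding gene on the same strand. The mRNA of these genes may add to their signal. Tdh encodes threonine dehydrogenase, an enzyme that mouse embryonic stem cells depend on for growth. Its lncRNA (ENSMUST00000165776, chromosome 14, 63492707 to 63500259) was at 5.31, 5.58 and 5.54 in F9 and was not well above background on any testis array. It was at least 1107-fold higher in F9, a value with no test since the probe was named for its brightness there. Here and below, such a bound sets the mean of the bright group against the lowest signal well above background on each array of the dim group, or the probe's own signal where that is higher. Each bound holds under the main scaling only. Scaling to the 75th percentile of the probes detected on all 6 arrays shifted F9 minus testis by -1.23 (log2). With the median of the probes detected on each array the shift was -1.48. Such shifts lower the bound of a rise in F9.
Gap43 encodes a growth cone protein of neurons. Its lncRNA (ENSMUST00000125187, chromosome 16, 42248458 to 42276072) was at 5.66, 4.79 and 5.03 in F9 and at background in testis, at least 891-fold higher in F9. The study had listed it as specific to a tissue other than testis, a choice that required absence in these testis arrays. It is on the F9 list as well, so this bound is also a description. With the normexp background correction, which adds an offset of 50 to every signal and so compresses dim ones most, the fitted differences of Tdh and Gap43 shrank to 6.33 and 5.95 but were still called.

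Over all probes, limma called 12153 higher in F9 (20.0%) and 6825 lower (11.2%), at a fold of 5 or more and an adjusted p of 0.05 or less. Of the higher probes, 7911 (13.0% of all) were well above background on all 3 F9 arrays, while 2857 were well above background on none. Without F9 replicate 1 the number of higher probes was 20759, and 8086 with detection in F9. All 6825 lower probes were well above background on all 3 testis arrays. The direction of the whole comparison depended on the scaling. Higher probes made up 64.0% of those called, 65.6% when arrays were scaled to the median of all probes and 49.2% after quantile normalization. The share was 28.0% with the 75th percentile of the probes detected on all 6 arrays, 22.6% with the median of the probes detected on each array and 42.1% with normexp and quantile normalization. Under the main setting and these 5 alternatives together, 1975 probes detected in F9 were called higher each time, and 3880 detected in testis were called lower each time.

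**Figure D1:**
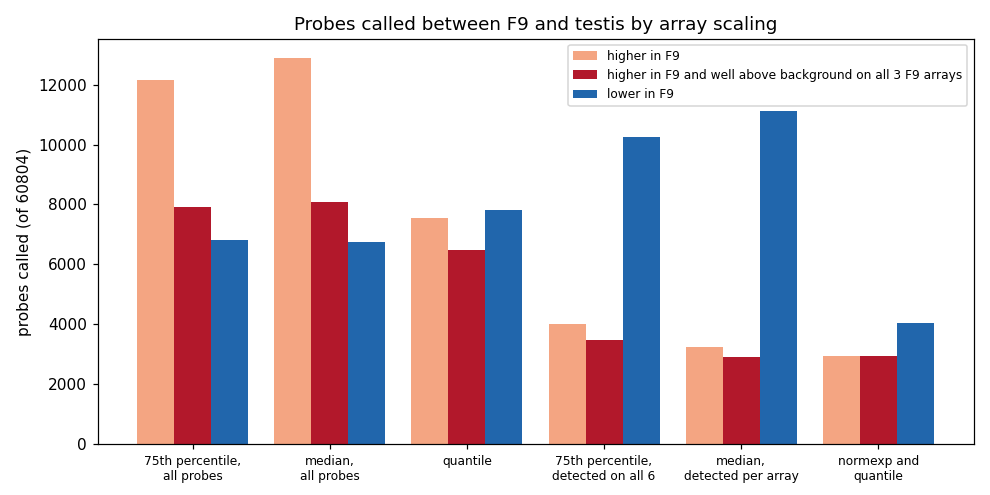
Number of the 60804 probes called higher in F9, higher and well above background on all 3 F9 arrays, or lower in F9, for each way of scaling the 6 arrays. With the 75th percentile of all probes 12153 were higher and 6825 lower, and with the median of the probes detected on each array 3245 were higher and 11136 lower.

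The flag for signals well above background does not use the scaling. In testis 33639 probes were well above background on all 3 arrays, and in F9 22345 were. Of these, 20932 were shared, which is 93.7% of the F9 probes and 62.2% of the testis probes. Testis had 8814 detected probes that were well above background on no F9 array, and F9 had 665 that were well above background on no testis array. The testis arrays were brighter, and these counts moved with the threshold. With 1 common log2 level of -2.14 as the threshold on every array, 23326 probes were detected in testis and 22240 in F9, 5241 in testis and on no F9 array, and 4021 in F9 and on no testis array. At the extreme, by the bounds under the main scaling, 617 probes were at least 100-fold lower in F9 and 45 at least 100-fold higher. Names could be given to 109 of the former and 2 of the latter, the lncRNAs of Tdh and Gap43.

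The mRNA lists follow in the order of their roles. In the list for pluripotency and the early embryo, 4 of 15 probes (26.7%) were called higher and 3 lower, beside 31.2% and 5.32% of all probes detected in both groups. On the F9 sheet of testis-specific mRNAs, from which these come, the shares were 14.4% and 21.9%. The median difference of the list was 1.59, near the 1.63 of all probes. Under all 5 other scalings, 3 of the higher and 2 of the lower ones were still called. Trim71, a ubiquitin ligase and RNA-binding protein of stem cells that let-7 represses, had levels of 6.49, 6.45 and 6.54 in F9 and of -0.33, -0.78 and -0.45 in testis. Of the named mRNAs it rose most, by 7.01 (log2, SE 0.23, limma adjusted p = 1.21e-07). Zfp534, a zinc finger gene on chromosome 4, was at 3.81 to 4.61 in F9 and 0.23 to 0.57 in testis. Zscan10, a transcription factor of embryonic stem cells, was at 3.61 to 3.80 against -0.20 to 0.22, a difference of 3.71 that missed the fold of 5 under 1 of the 5 other scalings. Trim71, Zfp42 and Zfp534 were called under all 5.
Other members of that list went down. Igf2bp3, an RNA-binding protein of embryonic and germ cells, was at 4.43 to 4.48 in testis and at -1.66 to -0.62 in F9, lower by 5.75 (limma adjusted p = 1.37e-06). Zic5, a zinc finger factor of the neural plate, was lower by 3.13. Nr6a1 (GCNF), an orphan nuclear receptor of germ cells that also turns off pluripotency genes in differentiating cells, had a difference of -2.72 that became -2.30 without F9 replicate 1 and -1.92 with normexp, both under the fold of 5. Fbxo15, a target of the pluripotency factors, was at 3.01 to 3.40 in F9 and 1.43 to 1.94 in testis, a difference of 1.59 that was not called.

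Genes of mitosis and cytokinesis were called higher for 10 of 32 probes (31.2%, the share of all probes detected in both groups) and lower for 2, with a median difference of 1.59. Among the mRNA probes on the F9 sheet 14.4% were called higher and 21.9% lower. Under all 5 other scalings, 3 of the 10 and both lower ones were still called. Ccna2, the cyclin of S phase and mitotic entry, was at 3.94, 4.40 and 4.31 in F9 and at -1.74, -1.55 and -1.16 in testis, higher in F9 by 5.69 (SE 0.26, limma adjusted p = 5.10e-07). Melk, a mitotic kinase, was higher by 4.83 and Sgol1, which protects centromeric cohesion, by 4.16, and these were the other 2 that held. Top2a, the topoisomerase that untangles sister chromatids, was at 5.56 to 5.97 in F9 and 2.44 to 3.02 in testis, called under 3 of the 5.
Skp2, the F-box protein that marks Cdkn1b for destruction, was at 0.16 to 0.49 in F9 and 3.26 to 3.47 in testis, lower by 3.02. Rcc1, the exchange factor that loads Ran with GTP on chromatin, was at -0.84 to -0.51 in F9 and 1.68 to 2.56 in testis, lower by 2.85 (SE 0.29, limma adjusted p = 4.78e-05). Within the slide that holds replicate 1 of both groups, the difference of Rcc1 was -2.19, under 5-fold.
In DNA replication and repair, 5 of 15 probes (33.3%) were called higher and none lower. The share called higher was 31.2% of all probes detected in both groups and 14.4% of the mRNA probes on the F9 sheet. The median of 0.65 lay below that of all probes, and none of the 5 held under every scaling. The highest were Parpbp, a partner of PARP1 that restrains recombination, at 3.59, Eme1, a subunit of the MUS81 nuclease, at 3.29, and Tipin, a guard of stalled forks, at 3.18. The kinase Atr was at -2.21, not called.

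**Figure D2:**
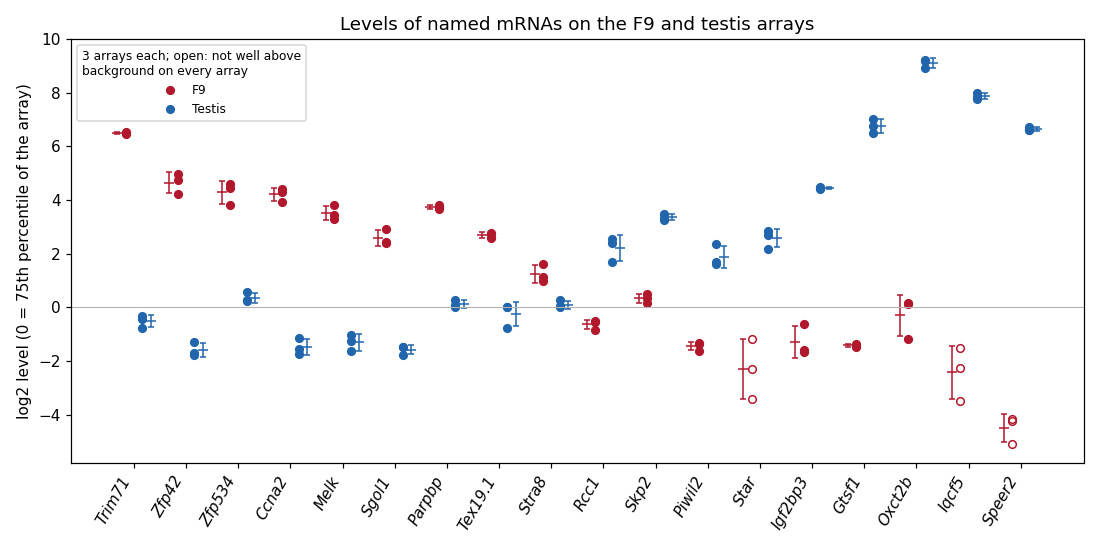
Log2 levels of 18 named mRNAs on the 3 F9 arrays (red) and the 3 testis arrays (blue), with bars for mean ± SD beside the points; open points belong to probes that were not well above background on every array of the group. From Trim71, 6.49 in F9 and -0.52 in testis, the order runs to Speer2, -4.49 in F9 and 6.65 in testis.

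Meiosis and germline genes were divided. Of 17 probes 2 were called higher (11.8%) and 4 lower (23.5%), with a median difference of -0.21. Among all probes detected in both groups 31.2% were higher and 5.32% lower. The mRNA probes on the F9 sheet, from which these come, had 14.4% higher and 21.9% lower, with a median of -0.26. The list thus lay near the shares of that sheet. Gtsf1, a zinc finger protein needed for piRNA-guided silencing of transposons, had levels of 7.01, 6.48 and 6.75 in testis and of -1.47, -1.43 and -1.36 in F9, a fall of 8.17 (SE 0.24, limma adjusted p = 8.57e-08). Piwil2 (Mili), the PIWI protein that binds piRNAs of early germ cells, fell by 3.33. Rnf17, a Tudor protein of the germ granules, fell by 2.68, and Tcfl5, a helix-loop-helix factor of spermatocytes, by 2.71. The 4 falls held under all 5 other scalings, but Tcfl5 was 2.32 lower without F9 replicate 1, just under the fold of 5.
Tex19.1, which represses retrotransposons in germ cells and in pluripotent cells, went the other way, at 2.59 to 2.78 in F9 and -0.76 to 0.02 in testis, higher by 2.95. Trip13, the ATPase that removes HORMA proteins from chromosomes in meiosis and at the mitotic checkpoint, was higher by 2.79. Both calls held under 2 of the 5 other scalings. The synapsis protein gene Hormad2 was within 0.32 of testis (limma adjusted p = 0.418), and Tex15, which acts in piRNA-directed methylation, was 1.83 lower, not called.

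Genes of the spermatid and the sperm were nearly all lower. Of 16 probes 14 were called lower and none higher, with a median difference of -7.02, and the 14 held under all 5 other scalings. Only 6 of the 16 were well above background on every F9 array, and 7 on none. Speer2, of a family of spermatogenesis-associated glutamate-rich proteins, was at 6.61 to 6.73 in testis and at background in F9, at least 537-fold lower (limma adjusted p = 6.87e-08). Iqcf5, with an IQ motif, was at 7.78 to 8.00 in testis and well above background on 1 of 3 F9 arrays. Oxct2b, a ketone body enzyme of the testis, was at 8.91, 9.19 and 9.24 in testis and at -1.19, 0.11 and 0.17 in F9, a difference of -9.42 yet well above background on all F9 arrays. Actl7a, an actin-like protein of the acrosome, was likewise detected in F9 at -1.80 to -0.20, against 8.28 to 8.36 in testis. Qrich2, of the sperm flagellum, kept a level of 1.39 to 2.83 in F9, against 8.31 to 8.57. The members not called were the phosphatase subunit Ppp1cc, at -1.04, and Spata6 of the sperm neck, at -1.22.
The study had chosen these mRNAs for their level in the same testis arrays, so a lower level in F9 is no independent evidence of a testis role. Over all 260 named mRNA probes, 89 were called lower and 27 higher with a median of -1.03.

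In the centrosome and cilium list, 5 of 14 probes (35.7%) were called lower and none higher, with a median of -1.83. This lay near the 34.2% called lower among all 260 named mRNA probes, so it is not read as a trait of centrosome genes. Poc1b, a centriole protein, was lower by 4.6 and Cep72, of the pericentriolar satellites, by 4.18, both with 2 of 3 F9 arrays above background, and these 2 held under all 5 scalings. Within the shared slide Cep72 was lower by 2.72. Tbc1d31, of the same satellites, was at background on all F9 arrays and at least 3.15-fold lower. Nuclear pore and RNA handling genes were mostly not called, 1 higher and 1 lower of 14 (7.14% each), with a median of -0.18. Among all 260 named mRNA probes 10.4% were called higher and 34.2% lower. Isg20l2, an exonuclease of rRNA processing, was lower by 4.01. Dis3, the exosome nuclease, was higher by 2.54, a call lost under 3 of the other scalings and at 1.94 within the shared slide. The nucleoporins Nup98, Nup205 and Nup214 lay between -0.39 and -0.13.

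Among the 6 mRNAs with the largest falls, 1700009N14Rik, on chromosome 4 from 39450293 to 39451780, led. It was at 9.18 to 9.30 in testis and at background on all F9 arrays, at least 3188-fold lower (limma adjusted p = 5.62e-08). Gm14501, which RefSeq now names H2al1k, one of the short histone H2A variants of spermatids on chromosome X, was at 7.81 to 8.13 in testis and at -4.27 to -2.08 in F9. Gm14625, also on chromosome X, was at 6.26 to 6.72 against -3.86 to -2.73. Both X-linked probes were well above background on 1 of 3 F9 arrays.

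**Figure D3:**
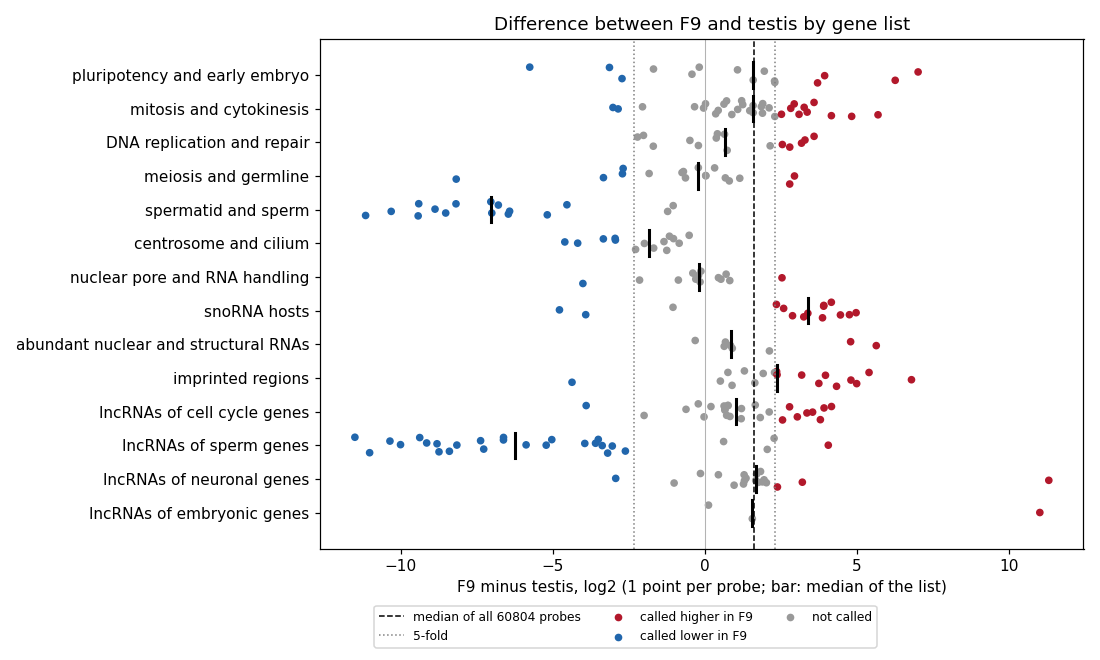
Difference F9 minus testis on the log2 scale for each probe of 14 gene lists (red, called higher; blue, called lower; grey, not called), with the median of each list as a black bar, the median of all probes (1.63) as a dashed line and 5-fold as dotted lines. The spermatid and sperm list and the lncRNAs of sperm genes lie at medians of -7.02 and -6.24, and the snoRNA hosts at 3.39.

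The lncRNA lists begin with those most reduced. Of 28 lncRNA probes at genes of the sperm, 24 were called lower (85.7%) and 1 higher (3.57%), with a median of -6.24. Over all probes these shares were 11.2% and 20.0%. Well above background on no F9 array were 22 of the 28. All 24 were known from lists of tissue-specific or testis-related lncRNAs, which the study chose on these arrays. The lncRNA of Adam5, a gene of the sperm surface, was at 6.76 to 6.83 in testis and at least 595-fold lower in F9. That of Cylc2, a protein of the sperm head, was at least 463-fold lower and Speer6-ps1 at least 315-fold. Under all 5 other scalings 16 of the 24 held. Among all named lncRNAs the largest fall was that of 1700027A15Rik (NR_038002, chromosome 1, 73024586 to 73025508), at 8.04, 8.57 and 8.53 in testis and at background in F9, at least 1772-fold lower (limma adjusted p = 5.62e-08). AK005929 lies antisense to an exon, on chromosome 2 between 130589437 and 130590006, and was at least 1134-fold lower. Kcnmb4os1 was at least 977-fold lower, AK017048 at least 959-fold, 4933432K03Rik at least 859-fold and 4930544D05Rik at least 797-fold.
The exception among the sperm genes was Iqcf3, at 9.59, 10.04 and 10.11 in F9 and 5.52, 6.10 and 5.94 in testis, higher by 4.06. Its probe holds sequence found in many others. Linked by shared runs of 20 or more bases, it falls in a chain of 59 probes for 59 symbols, together with the probe of the Mcm10 lncRNA from the cell cycle list. They are shown with the run common to both in capitals, which 16 of the 1829 lncRNA probes with a sequence contain.
Iqcf3: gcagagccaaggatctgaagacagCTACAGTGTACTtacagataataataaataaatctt
Mcm10: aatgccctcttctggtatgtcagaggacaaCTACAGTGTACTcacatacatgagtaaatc
The 59 probes of the chain had a median difference of 2.90. The signal of Iqcf3 and Mcm10 cannot be assigned to these genes alone.

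lncRNAs at cell cycle genes were called higher for 8 of 26 probes (30.8%, beside 31.2% of all probes detected in both groups) and lower for 1, with a median of 1.01, below that of all probes. The lncRNA of Ska2, a gene of the spindle and kinetochore complex, was higher by 4.17. Those of Rad54l, of homologous recombination, and Dlgap5, a spindle assembly factor, were higher by 3.92 and 3.80. Of the 8, 4 were known only from the F9 list. Those of Ska2, Rad54l and Dlgap5 held under all 5 other scalings. For Dlgap5 the mRNA probe was higher too, by 3.59. For Dscc1, of the cohesion-loading clamp, the 2 probes parted. The lncRNA was lower by 3.90 and the mRNA was at 0.74, not called. Both probes were known only from the study's testis-specific transcripts, chosen for their level in these testis arrays. The fall of the lncRNA is therefore a description. Rsph6a of the sperm radial spoke parted likewise, its mRNA lower by 5.18 and its exonic sense lncRNA at 2.05, not called, while both probes of Poc1b were lower, by 4.6 and 4.59. These are 4 of the 15 genes with a named probe of both kinds.

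snoRNA host genes carry small nucleolar RNAs in their introns and are spliced into lncRNAs that change with growth and translation. Of 15 probes 12 were called higher (80.0%, beside 20.0% of all probes) and 2 lower, with a median of 3.39. Well above background on all F9 arrays were 11 of the 12, and 6 held under all 5 other scalings. Of the 10 probes known from the brain list, which did not choose on F9 or testis, 9 were called higher, beside 54.9% of the whole brain list. These 10 probes stand for 3 genes, as 8 of them are probes of Gas5, of which 7 were called, and the others are Dancr and Snhg6. Snhg1 and Taf1d were named for their brightness in F9. Snhg11, the remaining one called higher, is on neither the brain nor the F9 list. Snhg6 (NR_024067, chromosome 1, 9942025 to 9944118) was at 6.99, 6.64 and 6.82 in F9 and 1.68, 1.94 and 1.90 in testis, higher by 4.97 (SE 0.23, limma adjusted p = 5.29e-07). Snhg1 was higher by 4.76, Taf1d by 3.87 and Dancr by 3.39. The Snhg3 transcript measured here (ENSMUST00000155816), which lies beside Rcc1 on chromosome 4, was lower by 4.78, with 1 of 3 F9 arrays above background. It was known only from the study's testis-specific lincRNAs, chosen for their level in these testis arrays, so its fall is a description.
Gas5, whose spliced RNA is degraded by nonsense-mediated decay in cells that translate, has 9 probes listed for as many transcripts, and they did not move alike. The array's annotation lists further transcripts as targets of 7 of them, and 5 of the 8 with a known sequence share 20 or more bases with another, so a probe's value is not that of 1 transcript alone. Higher calls came from 7 of them, at 2.36 to 4.46. The probe of ENSMUST00000160152 was at 8.00, 7.46 and 7.34 in F9 and 3.26, 3.12 and 3.05 in testis. That of ENSMUST00000159890, on the same gene on chromosome 1, was at 1.25, 1.71 and 1.06 against 2.17, 2.49 and 2.49, a difference of -1.04 that was not called. The probe of ENSMUST00000159706 was lower by 3.91, although the raised probes of ENSMUST00000160429 and ENSMUST00000162558 list that transcript among their targets too. This lower probe was known only from the study's testis-specific lncRNAs, chosen for their level in these testis arrays. Its fall is therefore a description. Of the 7 higher probes 3 were called under all 5 other scalings. These show 1 raised probe and the one that was not called.
ENSMUST00000160152: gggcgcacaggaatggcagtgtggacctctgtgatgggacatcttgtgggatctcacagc
ENSMUST00000159890: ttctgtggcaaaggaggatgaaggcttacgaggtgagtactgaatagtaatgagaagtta

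**Figure D4:**
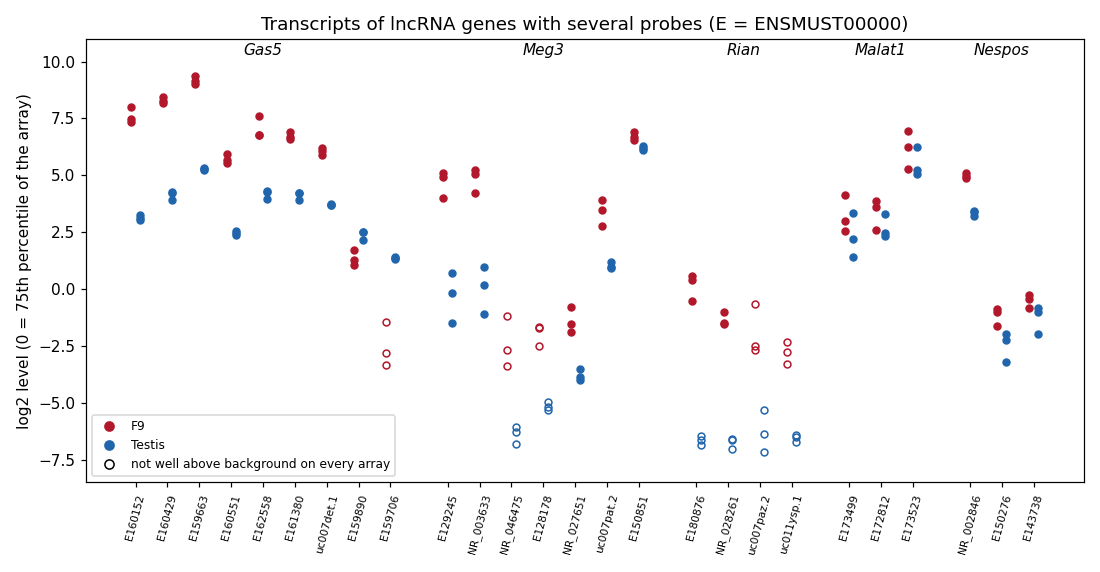
Log2 levels on the 3 F9 arrays (red) and 3 testis arrays (blue) for each probe of 5 lncRNA genes, labelled by its listed transcript, with several probes; open points are probes not well above background on every array of the group. The 9 Gas5 probes run from a difference of 4.46 down to -3.91, the lowest named only from a testis-specific list. The 4 Rian probes were at background on all testis arrays. For Rian transcript ENSMUST00000180876 this was fixed by the list that named it. The other Rian probes are not on the brain or F9 list either, so their absence may have been fixed likewise.

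In imprinted regions only the maternal or only the paternal copy is active. Of 18 probes 10 were called higher (55.6%, beside 20.0% of all probes) and 1 lower, with a median of 2.37. The Dlk1-Dio3 region on chromosome 12 gave all 10. Its maternally expressed Meg3 was called for 6 of 7 probes and Rian for 4 of 4. Meg3 transcript ENSMUST00000129245 was at 4.91, 5.10 and 4.02 in F9 and -1.49, 0.69 and -0.16 in testis, higher by 4.99 (SE 0.55, limma adjusted p = 6.74e-05). Rian transcript ENSMUST00000180876 was at -0.53 to 0.58 in F9 and at background in testis, at least 27.6-fold higher, a call lost with normexp. It was known only from the study's list of tissue-specific lncRNAs, for a tissue other than testis. That choice required absence in these testis arrays, so the bound is a description. The other Rian probes are not on the brain or F9 list either, so the calls for Rian are given as a description too. Of the 10 higher probes, 5 were known from the brain list and 5 from other lists, 6 were well above background on all 3 F9 arrays, and 2 held under all 5 other scalings. The brain list held 10 of the 18 probes, of which 5 were called higher, beside 54.9% of that whole list. Meg3 transcript ENSMUST00000150851 differed by 0.51, not called.
H19, the maternally expressed neighbour of Igf2, was at 8.37, 9.56 and 9.71 in F9 and 7.64, 8.66 and 8.66 in testis, 0.90 apart and not called. Kcnq1ot1 was at 2.29, just under 5-fold. Peg13, paternally expressed, was lower by 4.36, at -3.97, -1.51 and -1.91 in F9 and 1.88 to 1.92 in testis.

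Of the abundant nuclear and structural RNAs, 2 of 8 probes were called higher and none lower. These were Rpph1, the RNA of ribonuclease P, at 6.45 to 6.94 in F9 and 0.76 to 1.18 in testis, and Rprl3, a related gene, at 6.33 to 6.69 against 1.60 to 1.86. The differences of 5.64 and 4.79 held under all 5 other scalings, but both were named only from the F9 list. None of the 6 probes known from the brain list was called, beside 54.9% of that whole list called higher. The 3 Malat1 probes lay at 0.64 to 0.90 and Neat1 at -0.31, none called, and their F9 and testis arrays overlapped. The precursor of ribosomal RNA, Rn45s, was at 2.13.
Of 19 lncRNA probes at neuronal genes, 17 were well above background on no F9 array. Apart from Gap43, the 2 called higher, at Grin2a and Snap25, were at background in both groups, where the median of all such probes was 2.13. Shank2 was lower, at least 1.80-fold. Of the lncRNAs at embryonic genes, that of Tdh, known only from the F9 list, was called, while those of Mycn, at 1.56, and Rhox4a, at 0.12, were not.

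Processed pseudogenes are copies of mRNAs pasted into the genome. Of 46 probes for ribosomal protein pseudogenes, 45 were called higher in F9, with differences of 1.72 to 5.28 and a median of 3.69, and 12 held under all 5 other scalings. Of the 43 known from the brain list 42 were called, and the other 3, known from the F9 list, were among the 45. Rpl7a-ps9, one of those 3, was at 5.45, 6.70 and 6.88 in F9 and 0.93, 0.56 and 1.70 in testis, higher by 5.28. Rpsa-ps11 was higher by 4.94 and Rpl10-ps4 by 4.81. Such probes can read the mRNA of the parent gene, and how much of the signal comes from the copies was not tested.
The lncRNAs listed for brain, taken from the brightest part of that list and not chosen on F9 or testis, allow a wider look. The median of these is a level that 2.97% of all probes reach in brain. Of 1553 probes 853 were called higher and 31 lower, with a median of 2.51. RefSeq pseudogenes were 468 of them, of which 80.8% were called higher with a median of 3.46, against 34.5% of 287 at protein-coding loci with a median of 1.46. Their median level in testis was 5.34 and 3.73, so the pseudogenes were also the brighter class. Of the 468, 149 held under all 5 other scalings.
Probes that share 20 or more bases formed 115 families with 416 members. In the 15 families of 5 or more probes, the difference spread over a median range of 0.67, against 6.47 for the middle 90% of all lncRNA probes with a sequence. A family of 26 probes on 10 chromosomes, all known from the brain list, had differences of 5.41 to 6.70, and RefSeq calls 22 of them pseudogenes. One member, Gm17068 (ENSMUST00000163135, chromosome 19), is shown with a run in capitals that 18 probes contain.
Gm17068: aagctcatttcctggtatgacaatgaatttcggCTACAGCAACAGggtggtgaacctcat
The 26 symbols cannot be taken as 26 separate rises.

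Most genes of the X chromosome are silenced in spermatocytes during meiosis, and many stay low in spermatids. Of the brain-listed lncRNAs 141 lie on chromosome X, and 102 of them (72.3%) were called higher in F9 and none lower, with a median of 3.31. On the autosomes 750 of 1405 (53.4%) were higher and 31 lower, with a median of 2.44. The chromosome with the next highest median after X was chromosome 4, at 2.91, and the lowest was chromosome 6, at 1.43. Pseudogenes were 58.2% of the X-linked probes and 27.4% of the autosomal ones. Among pseudogenes the medians were 3.73 for X and 3.45 for autosomes, and among all others 2.54 for 59 probes and 1.97 for 1020. At protein-coding loci 9 X-linked probes had a median of 0.81 and 278 autosomal ones 1.49. The 2 sets differ in gene type and in brightness, so these medians are given as a description without a test.

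**Figure D5:**
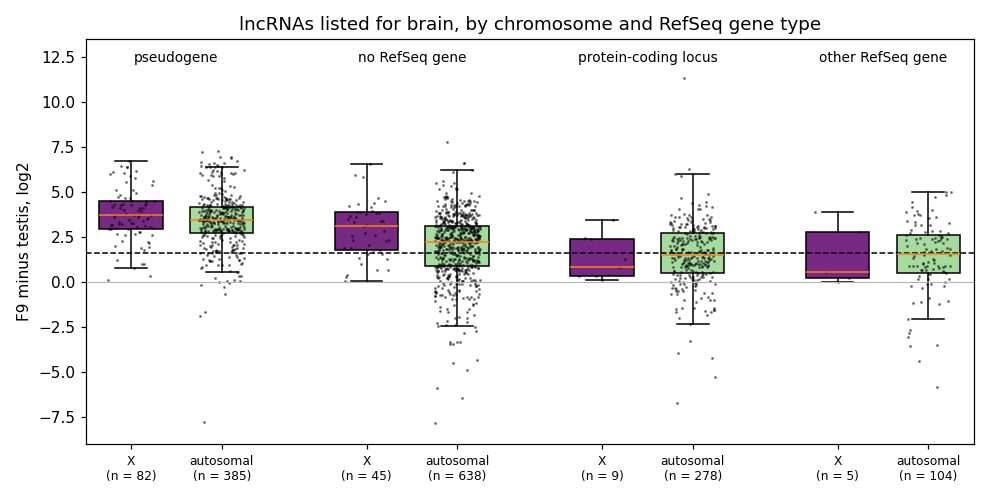
Difference F9 minus testis on the log2 scale of the brain-listed lncRNAs on chromosome X (purple) and on autosomes (green), by RefSeq gene type; boxes span the quartiles with the median as a line, whiskers reach the farthest probe within the usual multiple of the box height, points are probes, and the dashed line is the median of all 60804 probes (1.63). Pseudogenes lie highest on both, at 3.73 and 3.45.

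The GC-1 and GC-2 lines allow F9 to be set against other dividing lines. Fitted on the 12 arrays of testis, F9, GC-1 and GC-2, 13 of the 34 named values higher than testis were also called higher than both GC lines, beside 2.62% of all 60804 probes and 940 of the 12153 higher than testis, comparisons that share the F9 arrays. Of these, 6 of the 13 and 10 of the 34 are lncRNAs named for their brightness in F9, Tdh among them. The other 7 were Zfp42, Trim71, Zfp534, Tex19.1 and the lncRNAs of Meg3, Rian and Gap43. The mRNAs were listed as present in at least 1 line, and one listed for F9 alone was by that choice not counted as present in the GC lines, so these differences are a description. GC-2 replicate 1 correlated with the other GC-2 arrays at 0.972 and 0.973, against 0.988 between those, so the difference without it is given too. Zfp42 was at background in both lines, lower than in F9 by 9.11 in GC-1 and 9.40 in GC-2, or 9.38 without that array. Trim71 was lower by 10.53 and 11.62, or 11.39 without it. The Tdh lncRNA was lower by 10.52 and 10.64, or 10.45. Meg3 transcript ENSMUST00000129245 was lower by 9.76 and 9.88, or 9.67. Stra8 was at background in GC-1 and GC-2 and higher in F9 by 6.16 and 6.29, or 6.10.
Some germline genes lay between. Of the 17 probes of the meiosis and germline list, 13 (76.5%) were called higher than both lines, beside 2.62% of all probes. As these mRNAs were chosen by their presence in the lines, this too is a description. Gtsf1, Piwil2, Tcfl5 and Rnf17 were lower than testis and yet higher than both lines. Gtsf1 was 3.59 above GC-1 and 2.94 above GC-2, or 3.53 without replicate 1. Piwil2 was 3.60 and 3.86 above them, or 3.65, and Tcfl5 5.09 and 5.70, or 5.48. Piwil2 and Tcfl5 were well above background on no array of the GC lines, and Gtsf1 on 1 of 6.
Of the 32 probes of the mitosis list, 1 was called higher than both lines and none lower. It was Bora, a mitotic activator of Aurora A, which lay 3.33 above GC-1 and 3.29 above GC-2, or 3.50 without replicate 1, and was not called against testis. Ccna2 was 1.03 above GC-1 and 0.63 above GC-2, and Melk 0.46 and 0.24, none of them called. Snhg1 was 0.72 below GC-1 and 0.74 below GC-2, not called, and 0.47 above GC-2 without replicate 1. Igf2bp3 was called lower in F9 than in GC-1, by 4.01, and than in GC-2, by 4.52, or 4.62 without replicate 1. Peg13 was lower than both lines too, by 5.33 and 5.06, or 5.70. These were the 2 of 33 named values lower than testis that were also lower than both lines, beside 1.79% of all probes lower than both.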

How the data were processed

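Total RNA of each sample was labelled with Cy3 and hybridized to Arraystar mouse lncRNA arrays (V3, one colour). The authors scanned the arrays and deposited Feature Extraction files whose processed intensity is background-subtracted; the deposited series table holds the same intensity values. Flags for signals well above background were taken from the deposited files as given. Levels are log2 of the processed intensity minus each array's 75th percentile over 60804 probes, tested with limma 3.58.1 in R 4.3.3 on 6 arrays. Benjamini-Hochberg adjustment ran over all probes, and calls needed an adjusted p of 0.05 or less and a fold of 5 or more. The precision is limited by the 3 arrays per group. The script was tested on simulated data.

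The files hold no gene symbols, and 3478 probes were named through identities in the study's supplementary tables (shortened to their brightest rows for brain and F9, coordinates on GRCm38, checked against RefSeq of GRCm38.p6); the expression values of those tables were not used. The named genes were Zfp42, Stra8, Star and Rcc1, up to 3 called probes with the largest change in each direction for each list, and the 6 lncRNAs and 6 mRNAs with the largest change in each direction, from probes whose groups did not overlap and, for the last 2, well above background on all brighter arrays; others named in the text were chosen as list members. The comparison and the lists were chosen with earlier results of these data known.

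Alternatives were 4 other scalings, normexp with quantile normalization on the median signal (the mean signal is not in the files used here), the series table, a filter on dim probes, fits of 12 and 24 arrays, the replicate number and the slide as blocks, a fold of 2, and leaving out each array. Slide 1 held replicate 1 of both groups, another slide testis replicates 2 and 3, and the last F9 replicates 2 and 3. Per the labels RNA was extracted with Trizol, while the methods name an RNeasy kit.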

Additional observations from a re-analysis of the deposited data

How the results depend on the processing

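Of 68 named values, 52 kept their direction and their side of the threshold under all 19 alternatives. The direction turned for Stra8 alone, to -0.081 with the 75th percentile of probes detected on all 6 arrays and to -0.33 with the median of probes detected on each array. The number of higher probes (12153) was 3993 and 3245 under these 2 scalings, 7544 after quantile normalization, 2929 with normexp, 7926 with the filter on dim probes and 36710 at a fold of 2. Lower probes (6825) numbered 10252, 11136, 4033 with normexp and 10459 at a fold of 2. Leaving out 1 array gave 11261 to 20759 higher probes, the latter without F9 replicate 1, and 6707 to 6958 lower. The gap between the X-linked and autosomal medians (0.87) was 0.63 after quantile normalization and 0.65 with normexp. Probes detected in F9 and on no testis array (665) numbered 395 with the flag for a positive and significant signal and 4021 with 1 common log2 threshold of -2.14, under which 5241 were detected in testis and on no F9 array (8814). The cause of these shifts was not tested.

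Same-numbered arrays of the groups deviated together with correlations of 0.142, 0.166 and 0.0984, so the numbers were not taken to pair the samples. With the replicate block 12163 probes were higher and 6826 lower, and testis replicate 3 correlated best with F9 replicate 2. The fixed slide block, which rests on the replicate 1 pair, gave 10512 and 7038, and the random block 10820 and 6978. Scaling to spike-in spots was not run, since no spike-in probe had most of its spots above background on F9 replicates 2 and 3, where 13 of 770 such spots were. Levels at background in F9 are upper limits.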
